A study of Mus musculus with 22 samples.

Results

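The 300 regions described here are the 100 kb bins of the mouse autosomes in which the level of 5-methylcytosine (5mC) was furthest below that of both other tissues in cortex. They were chosen by their own 5mC values, from 24011 autosomal bins (1.25%) whose level lay above 0 and below 1 in all 7 libraries of oxidative bisulfite sequencing (oxBS-seq), out of 26327 bins in all. For each bin the gap was the smaller of the differences olfactory bulb minus cortex and cerebellum minus cortex between mean levels, and the 300 bins with the largest gap are called members. Because the rule used every 5mC library, the 5mC levels, the genes and the positions of the members are descriptions and carry no test, and only the level of 5-hydroxymethylcytosine (5hmC), which came from other libraries and another assay, was tested.

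All groups were whole tissue of C57BL/6 mice at 8 weeks of age, female by the study's methods, with no genetic change and no treatment. Cortex was the cerebral cortex without the hippocampus, and olfactory bulb and cerebellum were taken entire, so each library holds DNA of many kinds of neurons and glia. OxBS-seq, in which 5hmC is oxidized away so that 5mC alone is read as cytosine, was done on 3 cortex, 2 olfactory bulb and 2 cerebellum libraries. Tet-assisted bisulfite sequencing (TAB-seq), in which 5hmC is protected and 5mC is oxidized, was done on 3 libraries of each tissue, and the mice behind replicates are described as independent. A level is the share of cytosines read as modified, as a fraction from 0 to 1, given for each bin without read counts, so its depth is unknown and the SD between libraries is the error used here. RNA was not analysed here, so the tissue labels could not be checked against expressed marker genes.

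In mammals 5mC is placed on CpG dinucleotides by DNA methyltransferases, and TET enzymes oxidize it to 5hmC, which is more abundant in neurons than in most other cells. CpG-dense promoters are usually kept free of 5mC, whereas the bodies of genes are usually methylated. In neurons the bodies of active genes tend to carry more 5hmC and less 5mC than those of silent genes. A bin of 100 kb averages over many CpG sites and over all cells of a tissue, so a lower level in the same cells and a different mix of cells cannot be told apart.

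The members held between 3 and 1909 CpG sites, with a median of 756.5 against 776 over all autosomal bins. To show what sequence stands behind a level, stretches of the GRCm38 genome inside members follow, written 5′ to 3′ with every CG in capitals. The first 5 are promoters from RefSeq (GRCm38.p6), cut where an annotated untranslated region begins, of genes whose products are known from cortical neurons: Foxp1, Pou3f2 and Fezf2 encode transcription factors, Tle4 a corepressor and Grm7 a glutamate receptor. Their positions are chr6:99028314-99028548 (minus strand), chr4:22488367-22488616 (minus), chr14:12345960-12346115 (minus), chr19:14598134-14598433 (minus) and chr6:110645262-110645561 (plus). The last 3 are the windows of 300 bases with the most CpG sites in the members ranked 3, 4 and 6 by gap, at chr7:117434659-117434958 in an intron of Xylt1, chr12:95780349-95780648 in the coding exon of Flrt2 and chr15:69041723-69042022 in an intron of Khdrbs3 (all plus strand).
Foxp1 promoter: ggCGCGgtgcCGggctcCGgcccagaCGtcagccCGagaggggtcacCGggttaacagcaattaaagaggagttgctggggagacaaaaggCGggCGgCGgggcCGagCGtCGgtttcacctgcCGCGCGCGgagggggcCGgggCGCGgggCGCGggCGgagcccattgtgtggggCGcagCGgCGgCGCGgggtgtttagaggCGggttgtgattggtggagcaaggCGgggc
Pou3f2 promoter: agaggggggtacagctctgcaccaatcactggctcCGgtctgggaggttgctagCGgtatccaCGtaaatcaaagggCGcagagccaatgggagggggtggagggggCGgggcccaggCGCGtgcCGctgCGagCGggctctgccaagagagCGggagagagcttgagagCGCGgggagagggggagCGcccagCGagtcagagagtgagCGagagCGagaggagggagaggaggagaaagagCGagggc
Fezf2 promoter: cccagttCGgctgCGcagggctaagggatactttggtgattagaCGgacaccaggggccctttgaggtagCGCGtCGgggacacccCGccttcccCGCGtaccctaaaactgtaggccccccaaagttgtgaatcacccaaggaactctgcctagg
Tle4 promoter: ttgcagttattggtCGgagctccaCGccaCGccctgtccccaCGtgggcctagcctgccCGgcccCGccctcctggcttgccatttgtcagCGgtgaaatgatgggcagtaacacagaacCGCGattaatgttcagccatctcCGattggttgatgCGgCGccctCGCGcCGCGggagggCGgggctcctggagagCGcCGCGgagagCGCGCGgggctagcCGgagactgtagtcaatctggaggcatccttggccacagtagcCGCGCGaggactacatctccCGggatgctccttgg
Grm7 promoter: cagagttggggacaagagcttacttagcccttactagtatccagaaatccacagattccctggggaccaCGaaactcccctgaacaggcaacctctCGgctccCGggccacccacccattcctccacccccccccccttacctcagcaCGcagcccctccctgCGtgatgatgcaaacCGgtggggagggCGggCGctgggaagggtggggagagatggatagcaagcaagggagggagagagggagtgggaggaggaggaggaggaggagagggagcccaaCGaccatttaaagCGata
Xylt1 intron: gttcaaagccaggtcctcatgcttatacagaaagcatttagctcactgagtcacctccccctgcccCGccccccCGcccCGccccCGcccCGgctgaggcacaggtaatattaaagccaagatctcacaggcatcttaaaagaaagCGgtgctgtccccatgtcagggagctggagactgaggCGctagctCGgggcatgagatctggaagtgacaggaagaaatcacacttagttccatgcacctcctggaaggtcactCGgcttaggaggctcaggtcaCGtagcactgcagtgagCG
Flrt2 coding exon: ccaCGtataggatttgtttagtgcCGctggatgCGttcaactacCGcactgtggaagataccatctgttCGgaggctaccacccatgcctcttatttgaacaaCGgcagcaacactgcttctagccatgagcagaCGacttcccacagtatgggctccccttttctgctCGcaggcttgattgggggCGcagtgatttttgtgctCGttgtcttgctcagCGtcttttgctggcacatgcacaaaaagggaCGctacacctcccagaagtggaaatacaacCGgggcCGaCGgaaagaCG
Khdrbs3 intron: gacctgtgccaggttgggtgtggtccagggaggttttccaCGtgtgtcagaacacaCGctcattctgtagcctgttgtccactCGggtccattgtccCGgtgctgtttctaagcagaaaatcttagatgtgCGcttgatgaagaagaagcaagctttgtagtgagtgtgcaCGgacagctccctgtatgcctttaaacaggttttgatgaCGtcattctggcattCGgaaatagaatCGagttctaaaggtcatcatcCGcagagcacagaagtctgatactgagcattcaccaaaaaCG
The Foxp1 and Tle4 stretches held 30 and 28 CpG sites, and the densest windows of Xylt1, Flrt2 and Khdrbs3 held 11, 16 and 11. A window of 300 bases held 2.87, 2.15 and 2.55 CpG sites on average over these 3 members, so stretches as dense as these make up little of a bin. Of the RefSeq promoters, 276 of 210 genes lay inside members, with a median of 6 CpG sites in 300 bases against 7 over 31396 autosomal promoters. A share of 25.4% of them held 20 or more CpG sites, against 27.0% of all, so members did not stand out by dense promoters.

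In the members, the mean 5mC level was 0.595, 0.592 and 0.571 in the cortex libraries, 0.712 and 0.704 in olfactory bulb, and 0.749 and 0.731 in cerebellum. The tissue means were 0.586 ± 0.0126 (SD, n = 3), 0.708 ± 0.00526 (SD, n = 2) and 0.740 ± 0.0131 (SD, n = 2). In the other autosomal bins they were 0.675 ± 0.0148, 0.705 ± 0.00293 and 0.732 ± 0.0115. The members therefore differed from other bins in cortex, by the choice made, while their levels in olfactory bulb and cerebellum were close to those of other bins. The median member lay at 0.592 in cortex, and 15.6% of all autosomal bins had a lower level there, against 44.9% for the median of members in olfactory bulb and 45.2% in cerebellum. They were not the unmethylated regions of the genome, since the member with the lowest level in cortex still lay at 0.406.

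Replicate 3 of cortex was lower than the other cortex libraries over the whole genome, with a mean of 0.657 against 0.681 and 0.684 over all autosomal bins. Across these bins, Pearson's r between libraries of the same tissue was between 0.950 and 0.984. All cortex libraries lay below all other libraries in 299 of the 300 members, against 54.2% of all autosomal bins, a count that the choice of members largely fixes. The exception, at chr4:42000001-42100000 over the predicted genes Gm21093 and Gm3893, lay at 0.879, 0.500 and 0.722 in cortex, at 0.880 and 0.917 in olfactory bulb and at 0.825 and 0.857 in cerebellum. Its cortex libraries spread over most of the range and its SD of 0.190 was the highest among members. Another member, at chr8:129300001-129400000, is the end of the chromosome and held only 1213 bases with 3 CpG sites.

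**Figure D1:**
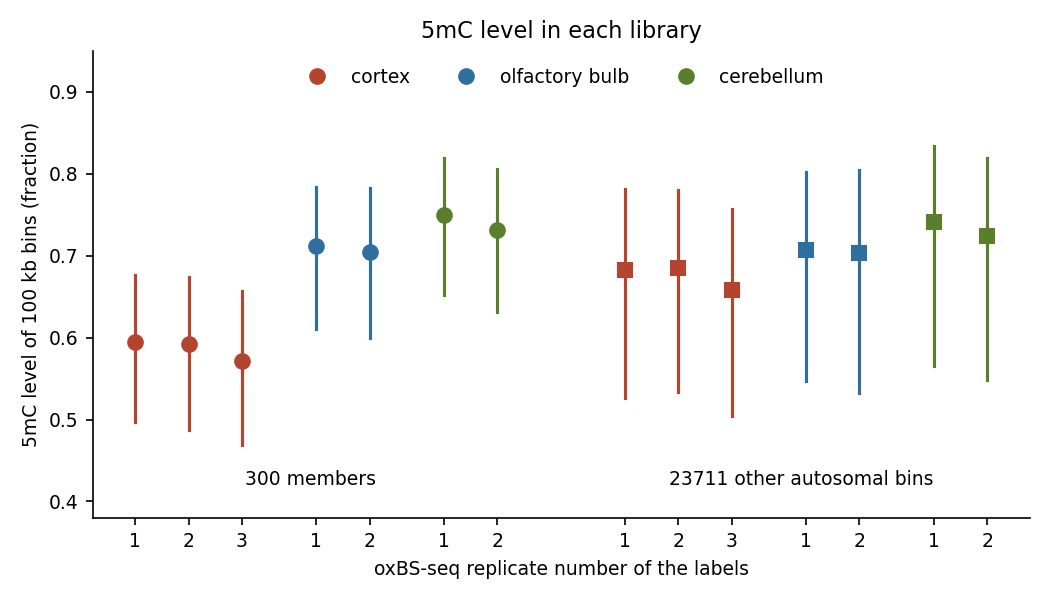
Mean 5mC level (y axis, fraction) of the 300 members (circles) and the 23711 other autosomal 100 kb bins (squares) in each oxBS-seq library (x axis, replicate number of the labels), with lines from the 5th to the 95th percentile of the bins. In members the 3 cortex libraries sit between 0.571 and 0.595, below all others, while the olfactory bulb and cerebellum libraries sit at about the levels of the other bins.

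The gap of the members ran from 0.195 down to 0.0989, with a median of 0.112, against a median of 0.0274 and a 95th percentile of 0.0730 over all autosomal bins. A gap above 0 was common, since 81.2% of all autosomal bins were lower in cortex than in both other tissues. Only 28 members had a gap over 0.15. Olfactory bulb minus cortex set the gap in 245 members and cerebellum minus cortex in 55. The difference from cortex had a median of 0.114 in olfactory bulb (0.0319 over all bins) and lay between 0.0992 and 0.297 in cerebellum. Cerebellum lay above olfactory bulb in the same 245 members, since the lower of these tissues sets the gap. Over all autosomal bins the median was also higher in cerebellum, at 0.757 against 0.726 in olfactory bulb.

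The largest gap belonged to the bin chr8:102700001-102800000, which holds the start of Cdh11, a classical cadherin of neurons and mesenchyme. It lay at 0.439, 0.438 and 0.417 in cortex, at 0.651 and 0.602 in olfactory bulb and at 0.684 and 0.680 in cerebellum. The libraries of cortex were thus about 0.2 below those of the other tissues and close to each other. The bin ranked 2, chr8:17300001-17400000, lies wholly inside Csmd1, which encodes a large membrane protein with CUB and sushi domains, and lay at 0.591, 0.570 and 0.536 in cortex against 0.766 and 0.741 in olfactory bulb and 0.802 and 0.780 in cerebellum. Rank 3 was a bin inside Xylt1, the xylosyltransferase that starts proteoglycan sugar chains, at 0.545, 0.560 and 0.509 in cortex, 0.735 and 0.715 in olfactory bulb and 0.726 and 0.715 in cerebellum. Here the other tissues were equally high. In Flrt2, a leucine-rich repeat protein of axon guidance, the bin ranked 4 lay at 0.534, 0.505 and 0.510 in cortex, 0.700 and 0.697 in olfactory bulb and 0.796 and 0.772 in cerebellum, so that cerebellum stood highest.

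The remaining 16 of the 20 largest gaps, from 0.179 to 0.155, lay in genes of several kinds. Osbpl1a encodes an oxysterol-binding protein, Khdrbs3 an RNA-binding splicing factor, Slc24a2 a sodium, potassium and calcium exchanger, Tjp1 the junction protein ZO-1, Nrp1 a semaphorin co-receptor and Kctd16 an auxiliary subunit of GABA-B receptors. Arap2 and Sh3rf3 encode a GTPase-activating protein and a ubiquitin ligase, and Tmem132b a transmembrane protein. The bin in Tjp1 (rank 10) had the largest difference between cerebellum and cortex of all members, 0.297, at 0.478, 0.459 and 0.475 in cortex and 0.777 and 0.757 in cerebellum, with olfactory bulb between them at 0.649 and 0.619. The bin in Foxp1 (rank 11), which holds the first promoter shown above, lay at 0.544, 0.538 and 0.540 in cortex, 0.717 and 0.690 in olfactory bulb and 0.729 and 0.736 in cerebellum. In both bins the lowest library of the other tissues lay above the highest of cortex.

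Where the members end is not a natural break. The last inside were chr18:82500001-82600000 with Mbp and Zfp236 (gap 0.0990), chr1:58700001-58800000 with Cflar and Casp8 (0.0989) and chr8:64800001-64900000 with Klhl2 (0.0989). The first outside were chr4:76900001-77000000 in Ptprd, chr2:149900001-150000000 in Syndig1 and chr15:66000001-66100000 in Kcnq3, all with a gap of 0.0989.

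Protein-coding genes overlapped by members numbered 237, and a few long genes held many members. Ptprd, a receptor-type tyrosine phosphatase that organizes synapses, held 16 members among the 24 bins it overlaps, and Csmd1 held 15 of 18. Nrg3, a ligand of the receptor ErbB4, held 10 of 12. Grm7, a presynaptic metabotropic glutamate receptor, held 9 of 10, and Foxp1 held 7 of 7. All 5 bins of Xkr4, an XK-related membrane protein, were members, and so were 5 of 13 of Lingo2, a leucine-rich repeat membrane protein, 4 of 5 of Tmem178b, 4 of 6 of Phactr1, an actin and phosphatase regulator, and 4 of 5 of the predicted gene Gm20696, which overlaps Foxp1. In the 500 kb on either side of these genes there was no member, except 3 beside Gm20696 that lie in Foxp1.

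Over all bins of Ptprd (chr4:75941238-78211961, minus strand) the 5mC level was 0.629, 0.626 and 0.608 in cortex, 0.746 and 0.744 in olfactory bulb and 0.774 and 0.756 in cerebellum. In the 10 bins within 500 kb outside the gene cortex lay at 0.740 ± 0.0182 (SD, n = 3), olfactory bulb at 0.790 ± 0.00171 (SD, n = 2) and cerebellum at 0.810 ± 0.0139 (SD, n = 2). The mean gap was thus 0.111 inside the gene and 0.0492 outside it. Csmd1 (chr8:15892537-17535586, minus strand) lay at 0.611, 0.611 and 0.594 in cortex, 0.730 and 0.728 in olfactory bulb and 0.785 and 0.768 in cerebellum, with a mean gap of 0.124 inside and 0.0496 outside. For Nrg3 (chr14:38368952-39473088, minus strand) the mean gap was 0.117 inside and 0.0419 outside, for Grm7 (chr6:110645581-111567230, plus strand) 0.116 and 0.0473, and for Foxp1 (chr6:98925338-99522721, minus strand) 0.123 and 0.0173. In each of these 5 genes the mean level of cortex was lower inside the gene than beside it, for example 0.605 against 0.713 in Csmd1 and 0.604 against 0.692 in Foxp1. The genes were picked for their many members, which favours such a difference. Olfactory bulb and cerebellum were also lower inside Ptprd, Csmd1, Nrg3 and Grm7, though by less. In Csmd1 they lay at 0.729 against 0.762 and at 0.777 against 0.796. In Foxp1 they were not lower inside, at 0.729 against 0.709 and at 0.755 against 0.752.

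The bins differed along the genes. In Csmd1 the cortex level was 0.536 in the bin at the gene's start and 0.646 in the last member 1586 kb downstream, whereas cerebellum lay at 0.716 and 0.797. Its largest gaps were in the bins centred 85.6 and 185.6 kb from the start, which are ranks 13 and 2 of all members. In Ptprd cerebellum set the gap in 3 bins that were no members, at 1762, 1862 and 2062 kb from the start, where it was lower than in most of the gene, at 0.574, 0.564 and 0.683 against 0.518, 0.540 and 0.598 in cortex, while olfactory bulb lay at 0.648, 0.706 and 0.741. These bins were picked out after their values were seen.

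**Figure D2:**
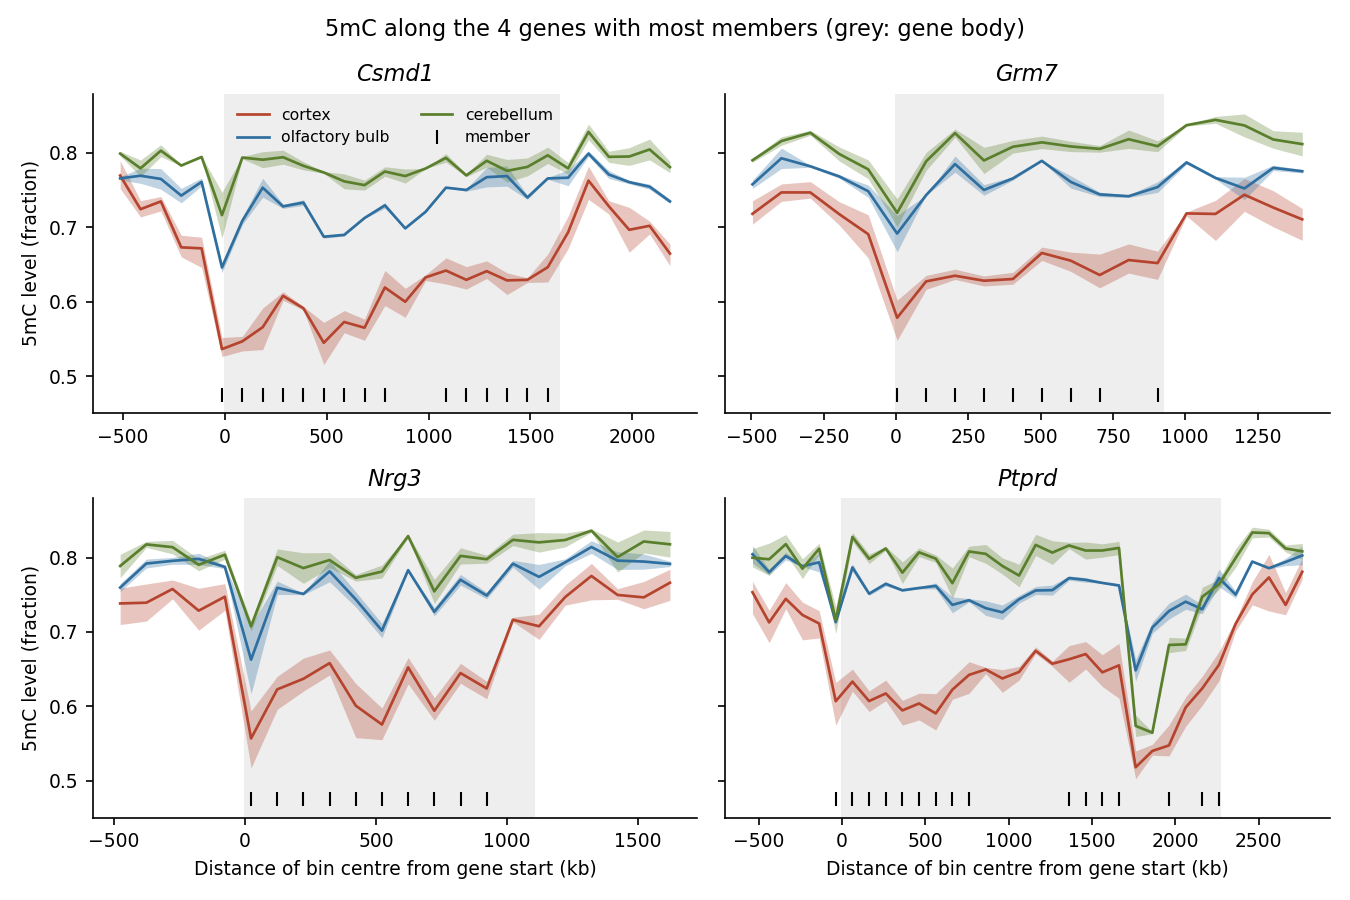
5mC level (y axis, fraction) of 100 kb bins by the distance of their centre from the gene's start (x axis, kb, in the direction of transcription) for Csmd1, Grm7, Nrg3 and Ptprd, with lines for tissue means, bands for the range of the libraries, ticks for members and grey for the gene body. The cortex line drops at the start of each gene and rises again near its end, while the other tissues change less, apart from cerebellum in the late part of Ptprd.

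Members lay inside genes more than bins in general. Genes covered 84.4% of a member on average, against 48.4% of all autosomal bins, and 168 members (56.0%) were wholly inside genes, against 17.6% of all. Only 24 members (8.00%) held no part of a protein-coding gene, against 35.2%. The start of a protein-coding gene lay in 92 members (30.7%), fewer than in bins in general (41.9%). Among bins without protein-coding sequence 0.284% were members, and among those wholly inside protein-coding genes 4.18%. Of the 727 bins wholly inside 1 gene of at least 1 Mb, 52 were members (7.15%), against 2.63% in genes of 600 kb to 1 Mb, 3.57% in genes of 300 to 600 kb and 4.13% in genes under 300 kb. This share rested on 3 genes, since Ptprd, Csmd1 and Nrg3 held 37 of the 52, and the other genes of at least 1 Mb had 15 members in 679 bins (2.21%), below every shorter class. The 300 bins least methylated in olfactory bulb and the 300 least methylated in cerebellum, chosen by the same rule, also lay mostly in genes, with a cover of 82.3% and 80.6%. Gene cover was therefore not particular to cortex. The median GC content was 41.5% in members and 41.4% in all bins, and the median share of repeats was 25.8% against 31.7%.

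Lists of cell type genes were then compared by their counts and their median gap, to be read beside 1.25% of bins and a median gap of 0.0274 over all autosomal bins. All bins of a list overlap a protein-coding gene, so shares by gene cover are a closer background. Members were 0.481% of bins with a cover above 0 to 50%, 1.45% above 50% and below 100%, and 4.18% at 100%. The 25 transcription factors of cortical excitatory neurons overlapped 60 bins, of which 15 (25.0%) were members, with a median gap of 0.0497. Of these 15 bins 7 belong to Foxp1, and the others include bins in or beside Pou3f2, Cux2, Emx1, Sox5, Fezf2 and Tle4, so that 8 of the 25 genes overlapped a member. Fezf2, a factor of subcerebral projection neurons, and Pou3f2, of upper-layer neurons, are short genes with a single bin each. They span 6.10 and 5.59 kb, so most of each bin lies outside the gene. The Fezf2 bin lay at 0.487, 0.497 and 0.449 in cortex, 0.601 and 0.562 in olfactory bulb and 0.610 and 0.580 in cerebellum. In the Pou3f2 bin cortex lay at 0.488, 0.477 and 0.417, and the lower library of each other tissue, 0.538 and 0.526, came close to the highest of cortex. The member beside Emx1 holds only the end of that gene and lies mostly in Sfxn5. Sox5 had 1 member among its 10 bins.

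Of 25 glutamate receptor genes, 3 overlapped a member (Grm7, Grm3 and Grid1), which gave 14 members in 116 bins (12.1%), although the median gap of the list, 0.0291, was close to that of all bins. Glial lists gave few members in small numbers of bins. The astrocyte list had 2 members in 28 bins (7.14%, median gap 0.0264), both in Slc1a2, which encodes the main glutamate transporter of astrocytes, and the oligodendrocyte list had 1 in 24 (4.17%, median gap 0.0406), in Mbp, the myelin basic protein. Slc1a2 as a whole lay at 0.549, 0.551 and 0.510 in cortex, 0.665 and 0.641 in olfactory bulb and 0.723 and 0.716 in cerebellum, so all cortex libraries were below the others. Among signalling genes of cortical excitatory neurons 1 of 39 bins was a member, with Nrgn, the calmodulin-binding neurogranin, a gene of only 8.41 kb. The median gap of this list, 0.00820, was below that of all bins, unlike that of the transcription factors. Among postsynaptic scaffold genes 1 of 69 bins was a member, in Psd3, with a median gap of 0.0111. No member fell on the lists for forebrain interneurons (54 bins), olfactory bulb interneurons (17 bins), cerebellar granule neurons (22 bins), Purkinje cells (41 bins), activity-regulated genes (21 bins), microglia (13 bins) and enzymes of DNA methylation and oxidation (12 bins). With so few bins, 0 members is little different from a share of 1.25%. Median gaps near that of all bins were found for Purkinje cells (0.0271), activity-regulated genes (0.0309), microglia (0.0331) and the enzymes (0.0237). Forebrain interneurons had -0.00395. The median gap was -0.138 in the olfactory bulb interneuron list, with a median level of 0.608 in cortex and 0.398 in olfactory bulb, and -0.0481 in the granule neuron list, with 0.583 in cortex and 0.571 in cerebellum.

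Some members held microRNA genes, whose products repress messenger RNAs that match their seed. In all, 28 annotated microRNA genes lay inside 22 members (7.33% of members, against 6.63% of all autosomal bins), so microRNA genes as such were no more frequent there. After their values were seen, 2 related clusters were singled out: Mir100, Mirlet7a-2 and Mir125b-1 on chromosome 9, and Mir99a, Mirlet7c-1 and Mir125b-2 on chromosome 16. Mature sequences were taken from RefSeq (GRCm38.p6), in which 15 of the 28 genes had one. They are shown because miR-100 and miR-99a share their seed, bases 2 to 8, in capitals, and because both clusters encode the same mature miR-125b. MiR-137, a microRNA abundant in neurons, comes from another member.
miR-100-5p: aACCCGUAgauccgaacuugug
miR-99a-5p: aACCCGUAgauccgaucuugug
miR-125b-5p: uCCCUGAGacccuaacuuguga
let-7c-5p: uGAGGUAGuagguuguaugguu
miR-137-3p: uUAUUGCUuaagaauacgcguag
The chromosome 9 cluster lay in chr9:41500001-41600000 (rank 162), at 0.534, 0.535 and 0.510 in cortex, 0.650 and 0.624 in olfactory bulb and 0.729 and 0.679 in cerebellum. On chromosome 16 the cluster lay in adjacent members at chr16:77500001-77600000 (rank 69) and chr16:77600001-77700000 (rank 61), the second of which lay at 0.532, 0.530 and 0.539 in cortex, 0.661 and 0.676 in olfactory bulb and 0.753 and 0.736 in cerebellum. The order of the tissues was the same at both clusters, which is common among members. Cortex is lowest by the rule, and cerebellum lay above olfactory bulb in 245 of the 300 members, as did its median over all autosomal bins. A related cluster on chromosome 17, with Mir99b, Mirlet7e and Mir125a, was no member, with a gap of 0.0240 in a bin that lay at 0.600, 0.629 and 0.554 in cortex, 0.643 and 0.618 in olfactory bulb and 0.645 and 0.592 in cerebellum, where the tissues overlapped. The Mir137 bin, chr3:118400001-118500000, lay at 0.520, 0.523 and 0.490 in cortex, 0.640 and 0.614 in olfactory bulb and 0.724 and 0.691 in cerebellum.

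Of the 24 members without a protein-coding gene, 17 overlapped another annotated gene and 7 overlapped none. The nearest protein-coding gene was between 20.2 and 1188 kb away, with a median distance of 278 kb. The largest gap among the 24 was 0.138, at chr1:124700001-124800000 inside the predicted gene Gm28928.

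Along the chromosomes the members formed 199 runs of adjacent bins. Of the 300 members, 153 stood alone and 147 (49.0%) had a member beside them, and 93 lay in the 19 runs of 3 or more bins. The longest run had 10 bins, chr14:38500001-39500000 in Nrg3, with mean levels of 0.617 (cortex), 0.743 (olfactory bulb) and 0.783 (cerebellum). Runs of 9 bins lay in Ptprd (chr4:77400001-78300000) and Csmd1 (chr8:16700001-17600000), a run of 8 in Grm7 (chr6:110600001-111400000) and a run of 7 in Foxp1 (chr6:98900001-99600000). Each of the 5 longest runs thus lay along a long gene, the last of them also over Gm20696, which overlaps Foxp1 and extends beyond it. Among the bins least methylated in olfactory bulb 53.3% had a neighbour of their own set, and among those least methylated in cerebellum 39.7%, so the clustering was about as strong in the other tissues. Chromosome 6, with Grm7 and Foxp1, held 40 members (2.73% of its usable bins), chromosome 4, with Ptprd, held 31 and chromosome 1 held 30, while chromosome 17 held 3 (0.326%).

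**Figure D3:**
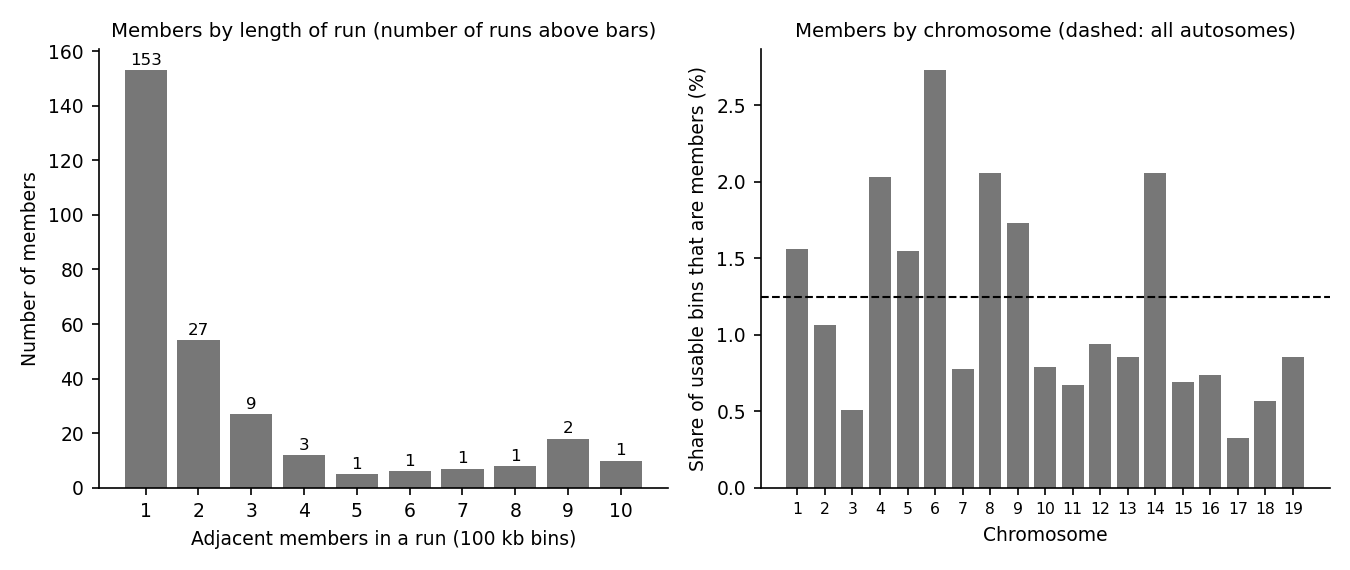
Left, number of members (y axis) by the number of adjacent members in their run (x axis, 100 kb bins), with the number of runs above each bar. Right, share of the usable bins of each autosome that are members (y axis, %), with a dashed line at 1.25% for all autosomes. Single bins are the largest class with 153 members, and chromosome 6 has the highest share at 2.73%.

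Bins beside members shared part of the difference. Bins at 100 kb that were no members themselves had a mean difference of 0.0647 for olfactory bulb minus cortex, against 0.122 in members and 0.0309 over all bins, and of 0.0935 for cerebellum minus cortex, against 0.154 and 0.0584. At 200 kb the differences were 0.0513 and 0.0791, and at 600 kb they were 0.0362 and 0.0656, near those of the genome. Most of this change was in cortex, whose mean went from 0.586 in members to 0.642 at 100 kb and 0.684 at 600 kb, while olfactory bulb lay at 0.708, 0.707 and 0.720.

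**Figure D4:**
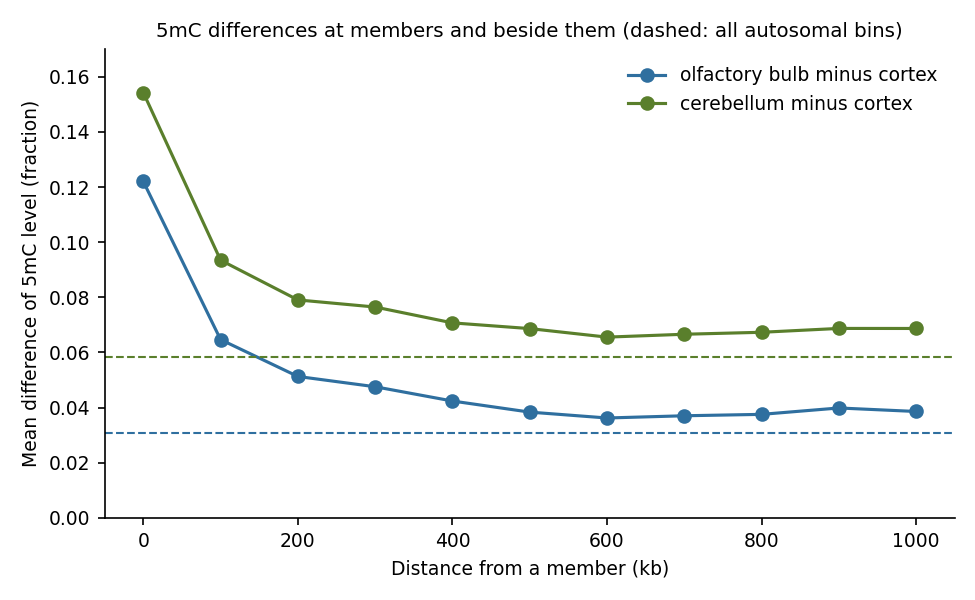
Mean difference of the 5mC level from cortex (y axis, fraction) for olfactory bulb and cerebellum, at members (0 kb) and in bins that are no members at 100 to 1000 kb from one (x axis, kb), with dashed lines for all autosomal bins. The differences fall from 0.122 and 0.154 at members to 0.0647 and 0.0935 at 100 kb and flatten from about 500 kb.

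To see whether the members rest on single libraries, the 300 bins were chosen again without 1 library at a time and read in the library left out. These sets shared between 238 and 279 bins with the members. In the left-out cortex libraries the chosen bins had a mean of 0.601, 0.601 and 0.577, against 0.681, 0.684 and 0.657 over all autosomal bins. The left-out library lay on the same side of the other tissues in at least 297 of the 300 bins in each of the 7 cases, where between 70.3% and 92.4% of all autosomal bins did so. For a left-out olfactory bulb or cerebellum library this count was largely fixed, since all cortex libraries took part in the choice. The left-out olfactory bulb libraries lay at 0.713 and 0.696, against 0.707 and 0.703 over all autosomal bins. Those of cerebellum lay at 0.755 and 0.725, against 0.741 and 0.724.

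The 5hmC level was given in bins of 1 Mb, and 189 of the 2413 autosomal 1 Mb bins held at least 1 member. They are called host bins. Of these, 135 held 1 member, 27 held 2 and 27 held 3 or more, up to 8, so in most host bins the member is a small part of what was measured. The mean 5hmC level of the host bins was 0.190, 0.204 and 0.183 in cortex, 0.160, 0.168 and 0.160 in olfactory bulb, and 0.107, 0.105 and 0.109 in cerebellum. The tissue means were 0.192 ± 0.0107, 0.162 ± 0.00450 and 0.107 ± 0.00190 (SD, n = 3 each). No library of one tissue reached those of another. In the other autosomal bins the means were 0.167 ± 0.00972, 0.149 ± 0.00439 and 0.0980 ± 0.00183. Host bins were therefore higher in 5hmC than other bins in every tissue, most so in cortex. A high level in cortex was not particular to them. Where 1 Mb bins held bins least methylated in olfactory bulb, cortex lay at 0.194 ± 0.0106 (SD, n = 3). Where they held bins least methylated in cerebellum, cortex lay at 0.179 ± 0.00991 (SD, n = 3). Olfactory bulb minus cortex was -0.0298 in host bins and -0.0179 in other bins, and cerebellum minus cortex was -0.0853 and -0.0692.

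On the scale of the levels the difference grew with the number of members. Olfactory bulb minus cortex was -0.0267 in host bins with 1 member, -0.0343 with 2 and -0.0413 with 3 or more, and cerebellum minus cortex was -0.0819, -0.0866 and -0.101. Relative to the library median the median log2 change over these bins was -0.04, -0.12 and -0.17 in olfactory bulb but 0.02, 0.08 and -0.19 in cerebellum, so in cerebellum the step from 1 to 2 members went the other way. In the 27 host bins with 3 or more members, 5hmC was 0.193, 0.207 and 0.185 in the cortex libraries, 0.151, 0.159 and 0.152 in olfactory bulb and 0.0956, 0.0925 and 0.0960 in cerebellum. These bins were as high as the other host bins in cortex and lower than them in olfactory bulb and cerebellum. Gene cover was higher in members too, and its median was 56.7% in host bins against 51.1% in other autosomal 1 Mb bins. Among bins with genes over at least 80% of their length, olfactory bulb minus cortex was -0.0309 in 24 host bins and -0.0133 in 178 other bins. Cerebellum minus cortex was -0.0794 and -0.0654 in these sets. Relative to the library median the median log2 change was -0.03 and 0.08 in olfactory bulb and 0.26 and 0.31 in cerebellum. The part of gene cover in these differences was not tested.

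**Figure D5:**
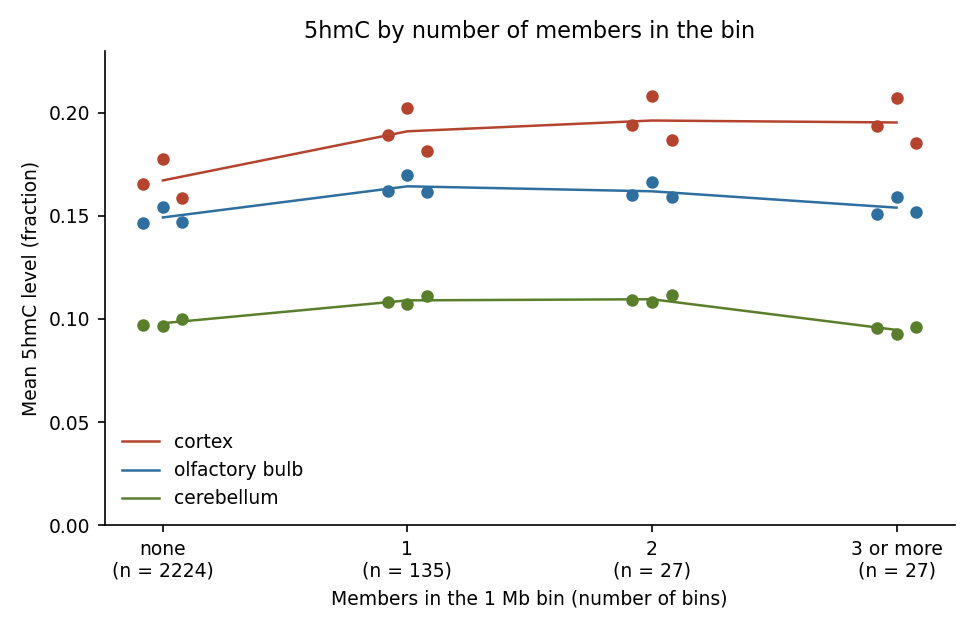
Mean 5hmC level (y axis, fraction) of autosomal 1 Mb bins by the number of members they hold (x axis, with the number of bins), with a point for each TAB-seq library and lines through the tissue means. Cortex is higher in bins with members than in bins without, and in bins with 3 or more members olfactory bulb and cerebellum are lower than in bins with 1.

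Each 1 Mb bin was tested with limma on the log2 of level/(1 - level), over all 2581 usable bins, with Benjamini-Hochberg adjustment and an adjusted p-value under 0.05 as the threshold. In olfactory bulb 5hmC was lower than in cortex in 153 of the 189 host bins (81.0%), against 67.7% of all bins, and higher in 0 host bins, against 3.25%. Cerebellum was lower in 187 host bins (98.9%), against 97.6% of all bins, and higher in 0, against 0.426%, so for cerebellum the host bins were near the background. This fit gave every bin the same standard error of 0.0732 on the log2 scale, so its p-values do not reflect the spread of single bins. Since 5hmC was lower in both tissues over most of the genome, by a median of -0.24 in olfactory bulb and -0.97 in cerebellum on the log2 scale, the levels were also tested after each library's median was subtracted. Relative to the library median, olfactory bulb was lower in 94 host bins (49.7%), against 33.0% of all bins, and higher in 45 (23.8%), against 36.2%. Cerebellum was lower in 89 (47.1%), against 40.1%, and higher in 83 (43.9%), against 50.3%. The excess over the background was larger in the 27 host bins with 3 or more members, of which 18 (66.7%) were lower and 1 higher in olfactory bulb and 17 (63.0%) lower and 8 higher in cerebellum, relative to the median.

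The mean over libraries was lower in olfactory bulb than in cortex in 185 of the 189 host bins, against 88.6% of autosomal 1 Mb bins, and all olfactory bulb libraries lay below all cortex libraries in 159, against 67.2%. For cerebellum these counts were 188, against 99.0%, and 186, against 97.5%, which is near the background. The 5mC level of a 1 Mb bin was taken as the unweighted mean of its usable 100 kb bins. In host bins both levels summed to 0.846, 0.873 and 0.847 in cortex, olfactory bulb and cerebellum, and 5hmC made up 22.7%, 18.6% and 12.6% of the sum. In the other autosomal bins the sums were 0.843, 0.854 and 0.830, and 5hmC made up 19.8%, 17.5% and 11.8%. The order of these shares was thus not particular to host bins. Across the 189 host bins Pearson's r between the differences in 5mC and in 5hmC was -0.64 for olfactory bulb and -0.61 for cerebellum, against -0.69 for both over the 2413 autosomal bins, so the relation was not particular to host bins. The bins share libraries and are no independent replicates.

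Single host bins differed. The bin with the most members, 8, was chr8:16000001-17000000, wholly inside Csmd1. Its 5hmC level was 0.236, 0.248 and 0.230 in cortex, 0.175, 0.187 and 0.177 in olfactory bulb and 0.0878, 0.0884 and 0.0896 in cerebellum, with no overlap between tissues (p = 0.1 against cortex for either tissue by an exact permutation, two-sided, the smallest p that 3 libraries against 3 allow). Relative to the library median the change was -0.27 ± 0.02 (standard error, log2 scale) in olfactory bulb, with an adjusted p of 3.81e-06 by limma, and -0.64 ± 0.02 in cerebellum, with an adjusted p of 1.65e-09. In the same bin the difference from cortex was 0.159 in 5mC and -0.149 in 5hmC for cerebellum, and 0.117 and -0.0582 for olfactory bulb.

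All 4 host bins over Ptprd were lower in olfactory bulb relative to the median, but they parted in cerebellum. In chr4:77000001-78000000, with 6 members, 5hmC was 0.202, 0.221 and 0.199 in cortex, 0.129, 0.136 and 0.133 in olfactory bulb and 0.0567, 0.0570 and 0.0588 in cerebellum. Relative to the median the change was -0.53 in olfactory bulb (adjusted p = 1.50e-07) and -1.06 in cerebellum (adjusted p = 3.13e-10, limma). In chr4:76000001-77000000, also with 6 members, which takes in the late part of the gene where cerebellum was low in 5mC, 5hmC was 0.239, 0.261 and 0.231 in cortex, 0.163, 0.171 and 0.159 in olfactory bulb and 0.178, 0.166 and 0.168 in cerebellum. There the cerebellum and olfactory bulb libraries overlapped, and the change of cerebellum relative to the median was 0.40 ± 0.04 upward (adjusted p = 2.41e-06, limma). The bin over the gene's start, chr4:78000001-79000000 with 3 members, changed by -0.42 in olfactory bulb and -0.90 in cerebellum (adjusted p = 9.88e-07 and 7.84e-10, limma). The bin over its end, chr4:75000001-76000000 with 1 member, changed by -0.37 in olfactory bulb and 0.09 in cerebellum (adjusted p = 5.70e-06 and 0.0184, limma).

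The Foxp1 bin was higher in both tissues relative to the median. In chr6:99000001-100000000, with 6 members, 5hmC was 0.237, 0.253 and 0.228 in cortex, 0.219, 0.225 and 0.214 in olfactory bulb and 0.157, 0.155 and 0.161 in cerebellum, so cortex and olfactory bulb came close to each other. The change relative to the median was 0.08 ± 0.02 upward in olfactory bulb (adjusted p = 0.00471) and 0.30 ± 0.02 upward in cerebellum (adjusted p = 1.78e-07, limma), although the levels themselves were lower in both tissues than in cortex. Of the other bins with most members, those of Nrg3 (chr14:38000001-39000000 and chr14:39000001-40000000), Xkr4 (chr1:3000001-4000000) and Grm7 (chr6:111000001-112000000) were lower in olfactory bulb relative to the median, with changes of -0.43, -0.16, -0.52 and -0.16 on the log2 scale (adjusted p = 2.47e-06, 0.0126, 4.03e-06 and 0.000387, limma). The second Csmd1 bin, chr8:17000001-18000000 with 6 members, had 5hmC levels of 0.207, 0.219 and 0.196 in cortex, 0.164, 0.175 and 0.167 in olfactory bulb and 0.0888, 0.0926 and 0.0915 in cerebellum. Its changes relative to the median were -0.13 in olfactory bulb and -0.34 in cerebellum (adjusted p = 0.00113 and 3.09e-07, limma). The bin of Phactr1, chr13:42000001-43000000, did not pass the test in olfactory bulb, with a change of 0.04 and an adjusted p of 0.169 (limma). In cerebellum it was higher relative to the median, by 0.11, and the Xkr4 bin lower, with a change of -0.17 (adjusted p = 0.000901 and 0.00255, limma). In the same tissue the Grm7 bin had 5hmC levels of 0.0679, 0.0648 and 0.0697, against 0.191, 0.202 and 0.179 in cortex, while the 2 Nrg3 bins did not pass the test relative to the median (adjusted p = 0.457 and 0.938, limma).

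The 4 host bins in which olfactory bulb was not below cortex in mean 5hmC held 1 member each, in Adgrb3, Ntm, Syt16 and the pair Usp47 and Dkk3, and none of them passed the test on the levels as deposited for olfactory bulb (adjusted p between 0.0974 and 0.610, limma). Relative to the library median all 4 were higher in olfactory bulb, with changes from 0.28 to 0.37 (adjusted p between 4.08e-06 and 0.000149, limma). The bin of Ntm, an IgLON adhesion gene, was the only host bin in which cerebellum was not lower either, with means of 0.253 (cortex), 0.261 (olfactory bulb) and 0.271 (cerebellum). Among hosts of the listed genes, the bins with Fezf2 and with Slc1a2 had about the same 5hmC level in olfactory bulb as in cortex, 0.218 against 0.219 and 0.227 against 0.228, while the members in them were lower in 5mC in cortex. Relative to the median both were higher in olfactory bulb, with changes of 0.24 and 0.23 (adjusted p = 5.29e-05 and 1.92e-05, limma).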

How the data were processed

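The authors deposited, for each library, a table of bins with a modification level as a fraction from 0 to 1. It was made from paired reads that were mapped uniquely to mm10 (GRCm38) with Bismark. By the study's methods a CpG site counted as modified if it had at least 5 reads and passed a binomial model. Whether bin levels rest on such sites only is not given in the sources used here. Nor is it given how sites were merged into the level of a bin. The oxBS-seq files (5mC) hold bins of 100 kb and the TAB-seq files (5hmC) bins of 1 Mb, with no counts, so the depth behind a level is unknown and intervals for counting error are not given. In olfactory bulb and cerebellum the replicate numbers of the oxBS-seq labels differ from those in the library names, and the labels were used. No sequencing batch is given. RNA samples were not used here, and some genes that the naming rule selects are not reported here.

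Members were the 300 autosomal bins with the largest gap, among bins above 0 and below 1 in all 7 oxBS-seq libraries. Members and gene lists were chosen with earlier results of these data known. Genes were taken from GENCODE M 21, and a bin was assigned to every gene it overlaps. The genes named were those of the 20 largest gaps, the 10 with most members, the 5 longest runs, the listed genes that overlap members, the 10 host bins with most members and the 3 bins on either side of the threshold. Others were chosen after their values were seen, namely the microRNA genes, the members without a protein-coding gene, the exceptions and the gene families. The 5hmC levels were fitted as log2(level/(1 - level)) with limma 3.58.1 in R 4.3.3 over all 2581 usable 1 Mb bins and all 9 TAB-seq libraries, with Benjamini-Hochberg adjustment. The same fit was made after subtracting the median of each library. Only the fit with subtracted medians was run on simulated data, and only for olfactory bulb minus cortex. The simulated noise was independent and had the same SD in every bin. Python 3.11.15, numpy 2.4.6, pandas 2.3.3, scipy 1.17.1 and matplotlib 3.10.9 were used otherwise. Alternatives were other rules and scales for the gap, other limma settings, a replicate block, and leaving out each library.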

Additional observations from a re-analysis of the deposited data

How the results depend on the processing

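The choice of members depended most on how the spread between libraries was weighed. Dividing the gap by the pooled SD plus the median SD kept 189 of the 300 bins, whereas the other rules tried kept between 230 (libraries centred on their medians) and 298 (bins at 0 or 1 in some libraries kept). Leaving out 1 oxBS-seq library at a time kept 238 to 279. The share of host bins called lower in 5hmC stayed within 1.5 times its value under all 16 alternatives for each tissue and scale. Leaving out 1 TAB-seq library gave 73.0% to 87.8% in olfactory bulb and 98.4% to 99.5% in cerebellum, and relative to the library median 45.5% to 50.8% and 43.9% to 47.6%. The mean difference in host bins lay between -0.0346 and -0.0241 in olfactory bulb and between -0.0900 and -0.0795 in cerebellum when 1 library was left out. With the replicate number as a block the shares were 83.6% and 98.9%, and 50.8% and 47.1% relative to the median. The share of all bins called was not taken under these settings. Whether the excess of host bins over the background held was therefore not tested. In the main fit 67.7% and 97.6% of all bins were called lower, and 33.0% and 40.1% relative to the median. Whether the replicate numbers pair the TAB-seq libraries by mouse could not be decided with 3 libraries per tissue. Same-numbered libraries of different tissues had correlations of their deviations between -0.191 and 0.429. Of 9 pairs, 3 were over 0.1, and these were also the only ones that correlated best with their own number. Olfactory bulb and cerebellum had 2 oxBS-seq libraries each, and the unknown depth limits the precision of bins with few CpG sites.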

Other observations

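Gene families were grouped by symbol after the values were seen, so their counts are descriptions, to be read beside a share of 1.25% of all autosomal bins. Their bins all overlap protein-coding genes, and among bins wholly inside such genes 4.18% were members. Leucine-rich repeat adhesion genes, which act at synapses and in axon guidance, overlapped 67 bins, of which 15 (22.4%) were members. Only 6 of the 23 genes held one, with 5 in Lingo2, 4 in Lrrc4c and the rest in Lingo1, Lrfn5, Flrt2 and Lrrtm1. The median gap over the 67 bins was 0.0702, and Lingo2 and Lrrc4c made up 13 and 14 of them. Among class III POU factors, 3 of 4 bins were members, those that overlap Pou3f3 and Pou3f2. Metabotropic glutamate receptors had 11 members in 40 bins (27.5%), all in Grm7 and Grm3, and contactins had 4 in 40, in Cntn3 and Cntn4. In receptor-type tyrosine phosphatases 18 of 95 bins were members, of which 16 lie in Ptprd. Shares were smaller in potassium channel subunits with 5 of 162 bins (3.09%) and in Eph receptors and ephrins with 2 of 49 (4.08%), and cadherins were at the share of all bins with 1 of 80 (1.25%), the bin of Cdh11 with the largest gap of all.

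The 1 Mb bins that host the other sets chosen by the same rule had smaller differences between the selected tissue and cortex. Host bins of the 300 bins least methylated in olfactory bulb (180 bins) had 5hmC levels of 0.192, 0.205 and 0.184 in the cortex libraries and 0.196, 0.203 and 0.193 in the olfactory bulb libraries, which overlapped. Cerebellum there lay at 0.124, 0.122 and 0.127. Host bins of the 300 bins least methylated in cerebellum (224 bins) lay at 0.141, 0.139 and 0.144 in cerebellum, the highest of the 3 sets for that tissue, at 0.162, 0.169 and 0.160 in olfactory bulb and at 0.177, 0.189 and 0.170 in cortex, so the order of the tissue means was that of the host bins of members.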
